A study of Mus musculus with 12 samples.

Results

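The genes described here encode ligands and receptors of axon guidance, that is, the semaphorins (Sema), ephrins (Efna, Efnb), Slit and netrins (Ntn) on the ligand side and the plexins (Plxn), neuropilins (Nrp), Eph receptors (Epha, Ephb), Robo and Unc5 on the receptor side. They were found by the beginning of their symbol in the 6 mRNA lists of N6-methyladenosine (m6A) peaks, leaving out Slitrk genes. Of the 10030 genes with a peak in at least 1 list, 49 matched. They held 31 ligand genes and 17 receptor genes. The last match, Unc50, meets the spelling of the rule but encodes no netrin receptor. It stayed in the totals and is set apart where families are counted.

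The cells were C17.2, a wild-type, immortalised neural stem cell (NSC) line of the mouse, so that each group is a model from a single line. Control cells were kept in standard oxygen. Hypoxia/reoxygenation (H/R) cells spent 12 h at 5% oxygen and 48 h back in standard oxygen, an in vitro stand-in for ischemia and reperfusion. For each group the labels gave 3 m6A immunoprecipitates and 3 input RNAs, 12 samples in 4 groups, and the peak lists were 1 per library, which carry the letters A, B and C within a group. Where 3 values of a group follow each other, they stand in the order of these letters. No label tied the letters to the replicate numbers or stated that the replicates were separate cultures, so the spread between libraries may be technical.

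Semaphorins are secreted or membrane-bound cues that bind plexins, and most class 3 semaphorins also need a neuropilin as co-receptor. Ephrins are bound to the membrane and signal through Eph receptor tyrosine kinases on the neighbouring cell, Slit proteins repel through Robo receptors, and netrins attract or repel through Dcc, neogenin and Unc5 receptors. In the nervous system these pairs steer axons and migrating cells, and neural stem and progenitor cells use several of them as well. m6A is placed on adenosines in mRNA, most often within a short consensus named DRACH (R stands for A or G, D for any base but C, and H for any base but G), and is known to be dense around stop codons and in long exons.

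A peak is a stretch where the immunoprecipitate was enriched over the input of the same library. The control mRNA lists held 7863 to 12180 peaks and the H/R lists 13954 to 22038, so that the shortest H/R list exceeded the longest control list, and the lists hold no read counts, so that sequencing depth was not used here. All counts below have to be read against that difference. A peak can be listed or missing because methylation differed or because the amount of the RNA differed, and the lists cannot tell these apart. Of 10 NSC marker genes, Nes, Sox2, Notch1 and Sox9 had a peak in all 6 lists, and Pax6, Vim, Prom1 and Fabp7 had none in any, which says nothing of their expression. Neuron, astrocyte, oligodendrocyte and endothelial marker lists had no gene called in all 6 lists, and the 4 microglia or blood markers had no peak. Of 5 fibroblast or mesenchyme markers 3 had a peak, and Pdgfrb was called in all 6 lists. No member peak had a deposited false discovery rate of 5% or less.

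The first question was how many of these genes carried a peak in each state. Peaks were called in 36, 33 and 28 of the 49 genes in the controls and in 38, 37 and 42 after H/R. The means were 32.3 ± 4.04 (SD, n = 3) and 39.0 ± 2.65 (SD, n = 3). The lists held 77, 62 and 49 peaks of these genes in the controls and 98, 83 and 128 after H/R. Thus every H/R list had more member genes and more member peaks than any control list. The same was true of all genes, with 4707 to 6470 called in the controls and 6639 to 8936 after H/R. The ratio of the mean numbers of genes called, H/R over control, was 1.21 for the axon guidance genes and 1.45 for all genes. The ratio of the mean peak numbers, H/R over control, was 1.64 for the axon guidance genes and 1.89 for all mRNA peaks. Their share of a list was 0.632%, 0.694% and 0.623% in the controls and 0.524%, 0.595% and 0.581% after H/R, so that it was lower in every H/R list than in any control list. When each list was shortened to its 7863 peaks with the highest p score (10 times the -log10 of the deposited p-value), 27, 31 and 28 genes were called in the controls and 29, 27 and 28 after H/R, with 47, 57 and 49 and with 54, 45 and 53 peaks. The groups overlapped at this equal length, and 24 of 33 genes still called (72.7%) were in all 6 lists, against 48.1% of all genes then called.

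**Figure D1:**
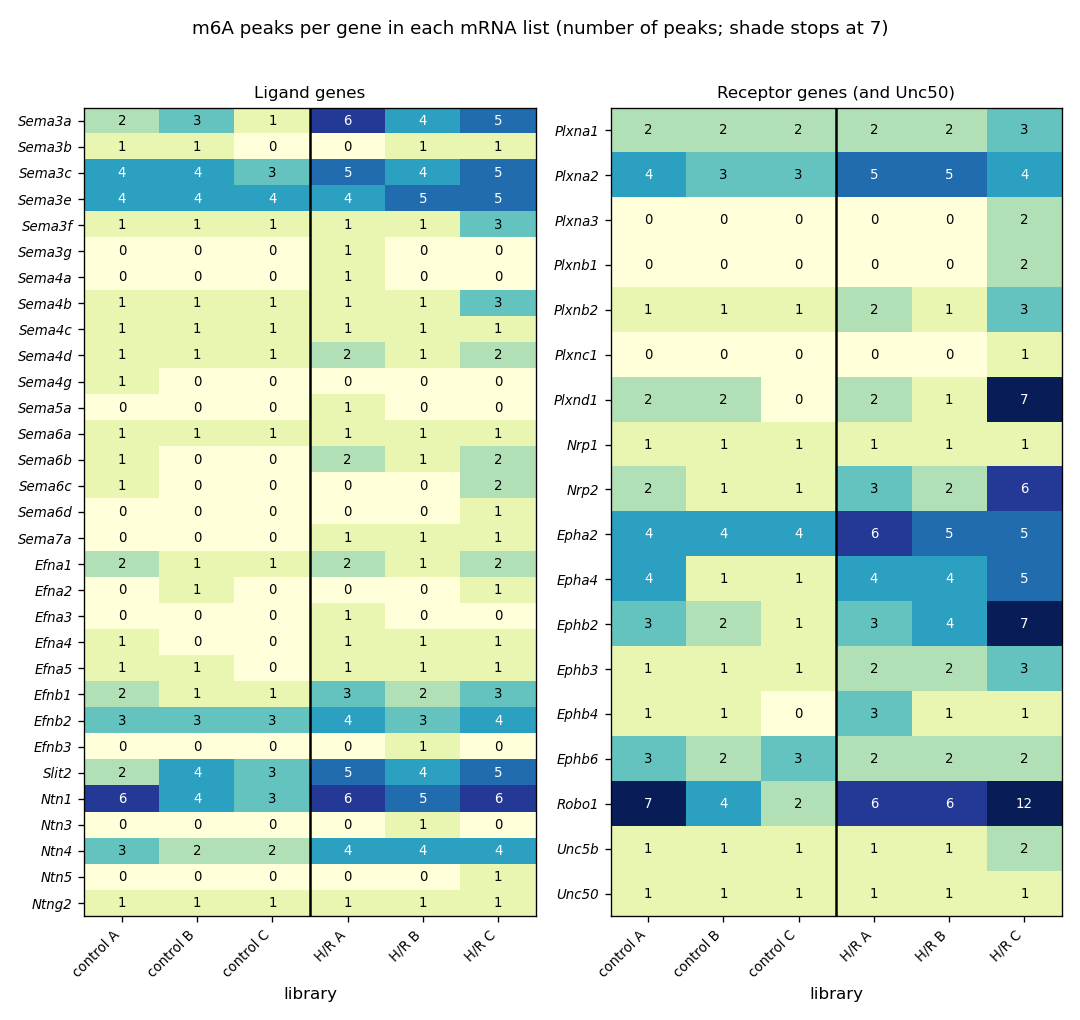
Number of m6A peaks of each of the 49 genes (rows) in each of the 6 mRNA lists (columns), ligand genes on the left and receptor genes with Unc50 on the right. Sema7a had 0 peaks in the 3 control lists and 1 in each of the H/R lists, and Robo1 reached 12 peaks in H/R C.

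Most of the genes were shared by both states. A peak was called in all 6 lists for 28 of the 49 genes (57.1%), against 39.5% of all genes with a peak. On the ligand side these were Sema3a, Sema3c, Sema3e, Sema3f, Sema4b, Sema4c, Sema4d and Sema6a among the semaphorins, Efna1, Efnb1 and Efnb2 among the ephrins, Slit2, and the netrins Ntn1, Ntn4 and Ntng2, the last a membrane-anchored relative of the secreted netrins. On the receptor side they were Plxna1, Plxna2, Plxnb2, Nrp1, Nrp2, Epha2, Epha4, Ephb2, Ephb3, Ephb6, Robo1 and Unc5b. Unc50 was the remaining gene. By family, 8 of 17 semaphorin genes, 3 of 8 ephrins, 3 of 5 netrins, 3 of 7 plexins, 2 of 2 neuropilins and 5 of 6 Eph receptors were called in all 6 lists. The genes called in all 6 lists therefore included at least 1 cue and 1 receptor of each of the semaphorin, ephrin, Slit and netrin systems.

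The other 21 genes were called in part of the lists. Ephb4, Plxnd1 and Efna5 were called in 2 control and 3 H/R lists, Sema3b in 2 and 2, Efna4 and Sema6b in 1 and 3, and Efna2 and Sema6c in 1 and 1. A peak in a single H/R list and in no control list was found for 11 genes. Efna3, Sema3g, Sema4a and Sema5a were listed in H/R A alone, Efnb3 and Ntn3 in H/R B alone, and Ntn5, Plxna3, Plxnb1, Plxnc1 and Sema6d in H/R C alone, the longest list. Sema4g, a transmembrane semaphorin, was the only gene called in fewer H/R than control lists. It had 1 peak in control A, in the 3′ UTR with a fold enrichment of 20.7, and 0 peaks in the other 5 lists. A presence in 1 of 3 lists did not exceed the spread within its group. The share of all genes with a peak in a single list was not computed, so these counts have no background. The H/R lists were also the longer ones.

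RefSeq lists 71 protein-coding mouse genes that meet the same spelling rule without Unc50, and 48 of them had a peak. Among the 23 without a peak in the lists were 8 Eph receptors (Epha1, Epha3, Epha5, Epha6, Epha7, Epha8, Epha10 and Ephb1), Robo2, Robo3 and Robo4, Slit1 and Slit3, Unc5a, Unc5c, Unc5cl and Unc5d, Plxna4 and Plxnb3, Sema3d, Sema4f and Sema5b, and Ntng1. All 8 ephrin genes had a peak in at least 1 list. By family, both neuropilin genes, 17 of 20 semaphorin, 5 of 6 netrin and 7 of 9 plexin genes had a peak. So did 6 of 14 Eph, 1 of 3 Slit, 1 of 4 Robo and 1 of 5 Unc5 genes. The share of all RefSeq protein-coding genes with a peak was not computed, so these counts have no background.

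The next question was which genes separated the states by presence. A gene was termed H/R-only when each H/R list and no control list held it. This held for 1 of the 49 genes (2.04%), Sema7a, against 4.96% of all genes. Sema7a (gene ID 20361) encodes a membrane-anchored semaphorin that signals through integrins and plexin C1. It had 0, 0 and 0 peaks in the controls and 1, 1 and 1 peaks after H/R (difference in means 1.0, two-sided exact permutation test p = 0.1, the smallest that 3 against 3 can give). The peaks overlapped in the last exon, exon 14 of 14, at chr9:57961240-57962630 (mm10, plus strand). Each began in the coding sequence, 362, 362 and 312 bases before the end of the stop codon after H/R, and ran 932, 900 and 1029 bases into the 3′ UTR. The fold enrichment of the 3 peaks was 13.52, 19.33 and 15.16. The peak exceeded 54.6%, 37.7% and 49.3% of the peaks of its list in p score, so that it lay near the middle of each list. At equal list length no H/R list kept it, and 0 of 33 genes still called were H/R-only, against 1.13% of all genes. No peak of Plxnc1, the plexin partner, was listed except 1 in H/R C.

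The DRACH match nearest to the middle of the stretch shared by the 3 H/R peaks is shown for Sema7a, with the motif in capitals. It lay at chr9:57961884-57961904 on the plus strand, 2 bases from the middle, and was 1 of 19 matches in this stretch of 1212 bases (GRCm38.p6, the assembly of mm10).
Sema7a: ctcacactTGACTtcatgcag

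Absence from all 3 H/R lists beside a call in each control list (control-only) was found for 0 axon guidance genes, against 0.0698% of all genes. At equal list length 1 of 33 genes was control-only, Efnb1, against 1.32% of all genes then called. Efnb1 encodes ephrin-B1, a transmembrane ligand of EphB receptors. In the full lists it had 2, 1 and 1 peaks in the controls and 3, 2 and 3 after H/R. The groups overlapped at 2 peaks in the full lists, with the higher mean after H/R, while the shortened lists held Efnb1 in the controls alone.

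Peak numbers per gene were then compared. More peaks in every H/R list than in any control list were found for 5 of the 49 genes (10.2%), against 14.8% of all genes. With control A left out the number was 14, and with H/R B left out it was 13. The share of all genes was not computed with a library left out, so this rise cannot be set against a background. Fewer peaks in every H/R list were found for 0 genes, against 0.12% of all genes. Beside Sema7a the 5 genes were Sema3a, Ntn4, Epha2 and Ephb3. For each of them the exact permutation test gave p = 0.1, which is the smallest value the design allows and above the usual threshold. At equal list length 0 of 33 genes had more peaks in every H/R list, against 2.51% of all genes, and 1 (Efnb1) had fewer, against 2.22%. With peaks of fold enrichment of 10 or more only Sema7a remained of the 5. Among the genes called in all 6 lists, 4 of 28 (14.3%) had more peaks in every H/R list, against 18.9% of all such genes.

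Sema3a (gene ID 20346) encodes a secreted repellent that binds neuropilin-1. It had 2, 3 and 1 peaks in the controls and 6, 4 and 5 after H/R, with means of 2.0 ± 1.0 and 5.0 ± 1.0 (SD, n = 3). The groups did not overlap, and 3.0 peaks per library was the largest difference in means among the 5 genes. All 6 lists shared a peak in the last exon at chr5:13599148-13601657 (plus strand), centred in the 3′ UTR. The additional H/R peaks were whole exons or parts of exons upstream of it, except 1 in H/R C further along the 3′ UTR. Exon 14 of 17 (chr5:13580992-13581149, coding) was listed after H/R in each library, with a fold enrichment of 16.25, 19.53 and 14.14 and in no control list. Exon 16 was listed in control A and B and in all H/R lists, and exon 15 in control B and in H/R A and B.

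Ntn4 (gene ID 57764) encodes netrin-4, a secreted laminin-like netrin of basement membranes. It had 3, 2 and 2 peaks in the controls and 4, 4 and 4 after H/R, with means of 2.33 ± 0.577 and 4.0 ± 0.0 (SD, n = 3). Exon 1 of 10 at chr10:93641049-93641508 (plus strand), centred in the 5′ UTR and reaching past the start codon, was listed in the 3 H/R lists alone, with a fold enrichment of 17.03, 14.69 and 14.82. Exon 2 and the last exon were listed in all 6 lists, and exon 3 in control A and in the 3 H/R lists. The H/R peaks thus extended the covered stretch to the 5′ end.

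Epha2 (gene ID 13836) encodes an Eph receptor of ephrin-A ligands. It had 4, 4 and 4 peaks in the controls and 6, 5 and 5 after H/R, with means of 4.0 ± 0.0 and 5.33 ± 0.577 (SD, n = 3). No Epha2 stretch was H/R-only. Exons 1 and 17 were listed in all 6 lists, exons 3 and 16 in 2 control and 3 H/R lists, exon 2 in control C and the 3 H/R lists, and exon 15 in control A and H/R A. The higher number in H/R therefore came from exons that single control lists also held.

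Ephb3 (gene ID 13845) encodes a receptor of ephrin-B ligands. It had 1, 1 and 1 peaks in the controls and 2, 2 and 3 after H/R, with means of 1.0 ± 0.0 and 2.33 ± 0.577 (SD, n = 3). Exon 1, centred in the 5′ UTR, was listed in all 6 lists. Exon 3 of 16, a coding stretch of 673 bases at chr16:21214325-21214997 (plus strand), was listed in the 3 H/R lists alone, with a fold enrichment of 8.58, 9.88 and 10.38.

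**Figure D2:**
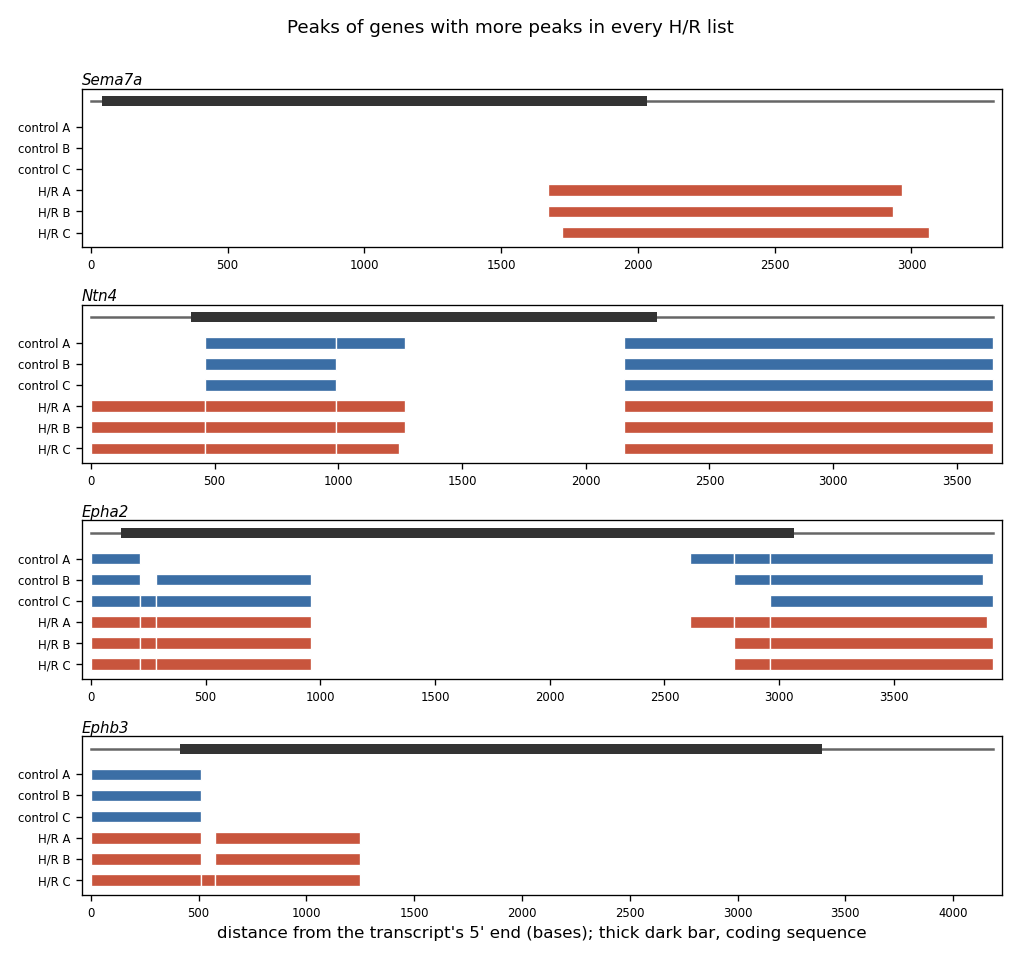
Peaks of Sema7a, Ntn4, Epha2 and Ephb3 in each library, drawn to scale along 1 transcript per gene (distance from the 5′ end in bases), with the coding sequence as a dark bar and white lines where peaks meet at an exon junction. Sema7a had a bar in the H/R libraries only, and in Ntn4 the bar at the 5′ end was present in H/R alone.

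These positions bear on what a peak number counts. The study kept the parts of peaks on exons, and at least 91.4% of the member peaks of each list had at least 1 border at an annotated exon border, against 93.6% to 97.9% of all mRNA peaks. A stretch of enriched mRNA that crosses exon junctions is therefore listed as several peaks. When peaks that met at a junction were joined on 1 transcript per gene, Ntn4 had 2, 2 and 2 stretches in the controls and 2, 2 and 2 after H/R, and Epha2 had 2, 3 and 2 and 2, 2 and 2. Ephb3 had 1, 1 and 1 and then 2, 2 and 1, and Sema3a had 1, 1 and 1 and then 2, 1 and 4. Counted in this way only Sema7a had more stretches in every H/R list (1 of 49 genes, 2.04%, against 9.75% of 9550 genes that could be placed), and 0 had fewer, against 0.178%. In Ntn4 and Epha2 the number of stretches did not rise, and their additional H/R peaks lay next to other listed exons. In Ephb3 the added coding exon lay apart from exon 1 in H/R A and B. In Sema3a some additional peaks of H/R A and C lay apart from the other peaks. This way of counting was chosen after the peak numbers had been seen.

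The peaks of the 49 genes merged into 150 regions. A region was present in all 6 lists in 43 cases (28.7%), against 22.0% of all 27079 mRNA regions. An H/R-only region, by the same definition, was found 6 times (4.0%), against 6.21%, and the reverse 0 times, against 0.0628%. Beside the regions of Sema7a, Sema3a, Ntn4 and Ephb3 these were exon 2 of Efnb1 (chrX:99145292-99145569, plus strand, coding) and exon 1 of Ephb2 (chr4:136835770-136835990, minus strand, within 100 bases of the start codon). The fold enrichment was 7.85, 9.31 and 10.59 for the Efnb1 region and 8.04, 9.85 and 15.33 for the Ephb2 region after H/R. Of the 6 regions, 5 lay in genes called in all 3 control lists by another peak, so that here the lists differed in position within the gene. H/R C alone held 40 of the 150 regions, and 5849 of all 27079 regions were in H/R C alone as well. None of the 6 regions was H/R-only at equal list length. Without control A, or without H/R B, 14 regions were H/R-only in place of 6. The share of all mRNA regions was not computed with a library left out.

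For 4 of these H/R-only regions the DRACH match nearest to the middle of the part shared by the 3 H/R peaks follows, in the order Sema3a (chr5:13581082-13581102, plus strand), Ephb3 (chr16:21214604-21214624, plus), Ntn4 (chr10:93641374-93641394, plus) and Efnb1 (chrX:99145335-99145355, plus), with the motif in capitals. In the same order, they lay 8, 47, 105 and 86 bases from the middle, among 2, 8, 4 and 2 matches. The Ephb2 region held no match, which says only that these letters are not in its 205 shared bases.
Sema3a: ctcgctcgGGACCcttactgt
Ephb3: gtgaaagtGGACAccattgcg
Ntn4: aggaggaaGAACCacagagcc
Efnb1: gacaagctGGACAtcatctgc

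The strength of a peak was compared only within its list, since fold enrichment differed between lists throughout. Its median over all mRNA peaks averaged 27.9 ± 6.06 in the controls and 11.6 ± 3.36 after H/R (SD, n = 3), and over the member peaks 28.9 ± 7.87 and 13.1 ± 1.5. A rank is given here as the percentage of peaks in the same list with a lower p score. Many of the strongest peaks of a list share 1 repeated p score, 3100, so that 84.9%, 86.8% and 88.0% is the rank of a peak with this score in the H/R lists and 89.8% and 93.1% in control A and B. The 6 genes whose lowest rank over the 6 lists was best were Sema3e, Sema3c, Sema4c, Nrp2, Efnb2 and Plxna2. For Sema3e, Sema3c, Sema4c and Nrp2 that lowest rank was 84.9%, the repeated score of H/R A, for Efnb2 it was 84.0% and for Plxna2 81.2%.

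Sema3e (gene ID 20349) encodes a secreted semaphorin that binds plexin D1 without a neuropilin. It had 4, 4 and 4 peaks in the controls and 4, 5 and 5 after H/R. Its coding exon 16 of 17 (chr5:14240963-14241102, plus strand) was listed whole in all 6 lists, with a fold enrichment of 98.53, 143.81 and 69.77 in the controls and 48.23, 64.35 and 46.86 after H/R. Plxnd1, its receptor, had 2, 2 and 0 peaks in the controls and 2, 1 and 7 after H/R, and the H/R value rested on H/R C.

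Sema3c (gene ID 20348) encodes a secreted semaphorin of neural crest and cortical development. It had 4, 4 and 3 peaks in the controls and 5, 4 and 5 after H/R. The whole of exon 17 of 18 (chr5:17724081-17724211, plus strand, coding) and the whole last exon (chr5:17727343-17730268) were listed in all 6 lists. The fold enrichment of exon 17 was 67.19, 84.49 and 64.13 in the controls and 39.42, 55.34 and 21.03 after H/R. The groups of peak numbers overlapped for Sema3c and Sema3e alike.

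Sema4c (gene ID 20353), a transmembrane semaphorin that binds plexin B2, had 1 peak in each of the 6 lists. It covered the end of the coding sequence, the stop codon and part of the 3′ UTR in the last exon (chr1:36548639-36550368, minus strand), with a fold enrichment of 94.94, 226.41 and 47.5 in the controls and 32.76, 38.44 and 32.59 after H/R. Nrp2 (gene ID 18187) encodes neuropilin-2, a co-receptor of class 3 semaphorins, and had 2, 1 and 1 peaks in the controls and 3, 2 and 6 after H/R. The peak shared by all lists was exon 1 (chr1:62703285-62704277, plus strand, centred in the 5′ UTR), and the groups overlapped at 2 peaks.

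Efnb2 (gene ID 13642) encodes ephrin-B2, a transmembrane ligand of EphB receptors and EphA4. It had 3, 3 and 3 peaks in the controls and 4, 3 and 4 after H/R, and 3 regions were shared by all 6 lists, in exon 1 (chr8:8660484-8660773, minus strand), exon 2 (chr8:8639206-8639489) and the 3′ UTR (chr8:8617434-8620976). Plxna2 (gene ID 18845) encodes a plexin that serves with neuropilins as a semaphorin receptor. It had 4, 3 and 3 peaks in the controls and 5, 5 and 4 after H/R. Its exon 1 (chr1:194619829-194620397, plus strand, 5′ UTR) was listed in all 6 lists with a fold enrichment of 105.0, 68.8 and 98.33 in the controls and 78.38, 54.15 and 67.76 after H/R. Peak numbers of both genes overlapped between the groups.

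For the strongest region of these 6 genes, the DRACH matches nearest to the middle of the parts shared by all 6 lists are shown. They lay at chr5:14240970-14240990 (Sema3e), chr5:17724116-17724136 (Sema3c), chr1:36549683-36549703 (Sema4c), chr1:62703743-62703763 (Nrp2), chr8:8619216-8619236 (Efnb2) and chr1:194620094-194620114 (Plxna2). The shared parts held 2 (Sema3e), 3 (Sema3c), 33 (Sema4c), 24 (Nrp2), 58 (Efnb2) and 13 (Plxna2) matches. Which of them is methylated was not tested. The sequences run in the direction of the transcript, with the motif in capitals.
Sema3e: gttggacaGGACTgaagagag
Sema3c: gtaagaaaTAACAgcactttc
Sema4c: ggtggtcgGAACTcaaatgcc
Nrp2: gtgccgggGGACCtgtgtcag
Efnb2: cgaagataGGACAtatttata
Plxna2: aaaactgaAGACAcccggctt

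The motif was about as frequent in these genes as elsewhere. Member peaks held 19.1 to 19.8 DRACH matches per kb over the 6 lists, against 20.3 to 20.8 in all mRNA peaks, searched on the transcript strand. The central 100 bases of a merged region held a match in 84.9% of 146 member regions with a known strand and in 84.0% of 26033 such mRNA regions. The control and H/R means of the member peaks were 19.6 ± 0.208 and 19.3 ± 0.153 matches per kb (SD, n = 3). On the opposite strand of the same peaks they were 16.2 ± 0.289 and 16.1 ± 0.265. Windows outside peaks were not searched, so these shares do not show that the motif is enriched in peaks.

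In each further family the gene with the most peaks was examined. Robo1, the Slit receptor, had 7, 4 and 2 peaks in the controls and 6, 6 and 12 after H/R. The difference in means of 3.67 peaks was larger than for any of the 5 genes above, but the groups overlapped (exact permutation test p = 0.3). Only exon 1 and exon 27 of 29 were listed in all 6 lists. Slit2, the only Slit gene with a peak, had 2, 4 and 3 peaks in the controls and 5, 4 and 5 after H/R. Ntn1, the founding netrin, had 6, 4 and 3 and then 6, 5 and 6 peaks. Unc5b, a netrin receptor, had 1, 1 and 1 and then 1, 1 and 2 peaks. For each of these 4 genes the highest control value reached at least the lowest H/R value.

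The remaining genes called in all 6 lists mostly carried a single constant peak. Among the ligands, Ntng2 and Sema6a had 1 peak in each list, and Sema3f, Sema4b, Sema4d and Efna1 had 1 or 2 peaks in each list except for 3 of Sema3f and Sema4b in H/R C. The constant Ntng2 peak was coding exon 2 (chr2:29227578-29228221, minus strand), with a fold enrichment of 64.78, 108.24 and 31.0 in the controls and 31.58, 32.09 and 63.04 after H/R. The constant peaks of Efna1, an anchored ephrin, of Sema3f, which signals through neuropilin-2, and of Sema4b lay in the last exon with their centres in the 3′ UTR. Thus these ligands were marked at the 3′ end, and Ntng2 within the coding sequence.

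Among the receptors, Nrp1, the co-receptor of Sema3a, had 1 peak in each list, in the last exon (chr8:128502525-128505475, plus strand), with a fold enrichment of 34.34, 43.36 and 26.13 in the controls and 17.19, 19.01 and 17.01 after H/R. The peak shared by all 6 lists thus lay in the 3′ UTR in Nrp1 and in the first exon in Nrp2, which had a 3′ UTR peak in H/R A and C as well. Plxna1 had 2, 2 and 2 peaks in the controls and 2, 2 and 3 after H/R, and Plxnb2, the Sema4c receptor, 1, 1 and 1 and then 2, 1 and 3. Epha4, which binds ephrins of both classes, had 4, 1 and 1 peaks in the controls and 4, 4 and 5 after H/R, and its constant peak was coding exon 3 (chr1:77506548-77507211, minus strand). Ephb2 had 3, 2 and 1 and then 3, 4 and 7 peaks, with the constant one in the 3′ UTR (chr4:136651606-136655430, minus strand). Peak numbers overlapped between the groups for each of these receptors.

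Over the 28 genes called in all 6 lists, the rank of the best peak was compared next. The mean rank was higher after H/R in 22 genes and lower in 6, with a median difference of 16.2 percentage points, against 10.0 over all 3966 genes called in all 6 lists. Every H/R rank exceeded every control rank in 11 of 28 genes (39.3%), against 30.5% of all 3966 genes. These were Epha2, Epha4, Ephb3, Ephb6, Nrp1, Ntn4, Plxna1, Plxnb2, Sema6a, Slit2 and Unc5b, of which 8 encode receptors. The widest differences were those of Ephb3 and Ephb6. The best Ephb3 peak had a rank of 34.8%, 17.1% and 6.88% in the controls and 70.7%, 38.5% and 69.5% after H/R. The best peak of Ephb6, an Eph receptor without kinase activity, had a rank of 48.5%, 36.1% and 36.0% and then 84.4%, 71.7% and 84.4%. A gene's best peak can be a different peak in each list. For Ephb6 it lay at the stop codon in control A and in exon 1 in control C and after H/R. Exon 1 of Ephb6 alone had a rank of 31.7%, 32.6% and 36.0% in the controls and 84.4%, 71.7% and 84.4% after H/R. For Ephb6 the number of peaks did not rise with the rank, with 3, 2 and 3 peaks in the controls and 2, 2 and 2 after H/R.

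Every H/R rank was below every control rank in 4 of 28 genes, Nrp2, Sema3c, Sema3e and Sema4c, against 14.6% of all 3966 genes. All of these stood at the repeated score in the 3 H/R lists, where 12.0% to 15.1% of the peaks had this score or a higher one, against 5.13% to 10.2% in the controls. With peaks ranked within their list by fold enrichment instead, none of the 28 genes had a lower rank in every H/R list, against 0.731% of all genes. A higher rank in every H/R list was found for 7 (25.0%), against 31.1%. A longer list adds weak peaks below a given peak and so moves its rank, and the part of list length in these differences was not tested.

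**Figure D3:**
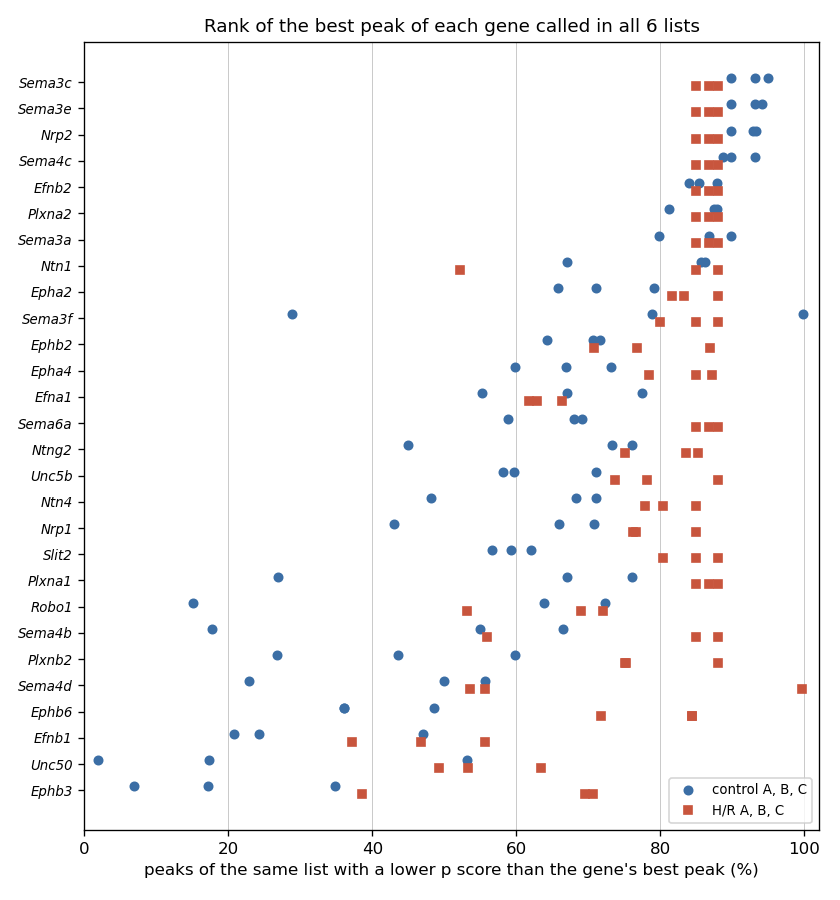
Rank of the best peak of each of the 28 genes called in all 6 lists, as the percentage of peaks of the same list with a lower p score, with circles for control and squares for H/R libraries. In Ephb3 and Ephb6 the squares lie right of all circles, and for Sema3c and Sema3e the H/R squares stand at the repeated score, that is, at 84.9%, 86.8% and 88.0%.

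Position along the transcript set receptors and ligands apart. Peak centres of receptor genes lay in the 5′ UTR in 25.0%, 36.0% and 42.9% of placed peaks in the controls and in 23.8%, 21.6% and 14.1% after H/R. For ligand genes this was 7.5%, 5.71% and 7.41% in the controls and 7.41%, 6.67% and 10.3% after H/R. Over all mRNA peaks it was 7.15% to 7.62% in the controls and 8.21% to 8.52% after H/R. Thus in each of the 6 libraries the share was higher for receptors than for ligands and for all mRNA peaks, with no overlap. Counted by bases, the 5′ UTR share of receptors was 13.9% to 20.8% in the controls and 9.95% to 13.1% after H/R. That of ligands was 7.27% to 8.01% and 6.29% to 8.44%, and that of all mRNA peaks 4.01% to 4.55% and 4.9% to 5.95%. By bases the order was the same, with receptors closer to ligands. The number of receptor peaks in this class stayed between 8 and 10 in every list. Coding peaks of receptors numbered 16, 9 and 6 in the controls and 21, 18 and 38 after H/R. Over all mRNA peaks the coding ones numbered 6210, 4696 and 4213 in the controls and 9980, 7567 and 12015 after H/R. Those in the 5′ UTR numbered 578 to 841 and 1102 to 1807. More coding peaks in every H/R list were thus not particular to receptors.

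The regions present in all 6 lists were counted next, from the same peaks. Of 17 such receptor regions 8 had their centres in the 5′ UTR (47.1%), and of 25 ligand regions 2 (8.0%), against 6.72% of 5747 placed mRNA regions in all 6 lists. The receptor regions were exon 1 of Ephb3, Ephb6, Nrp2, Plxna1, Plxna2, Plxnb2, Robo1 and Unc5b, and the ligand regions were exon 1 of Sema3e and of Slit2. All 10 were first exons, and they were 124 (Plxnb2) to 2064 bases (Slit2) long. The 8 to 10 receptor peaks centred in the 5′ UTR of each list included these 8 receptor regions. The shares per library and the region count thus rest largely on the same exons and are not separate evidence. Conversely, 11 of the 25 ligand regions and 4 of the 17 receptor regions reached a centre in the 3′ UTR in at least 1 list. The classes were compared as descriptions, without a test over genes, because the genes were chosen as a set.

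**Figure D4:**
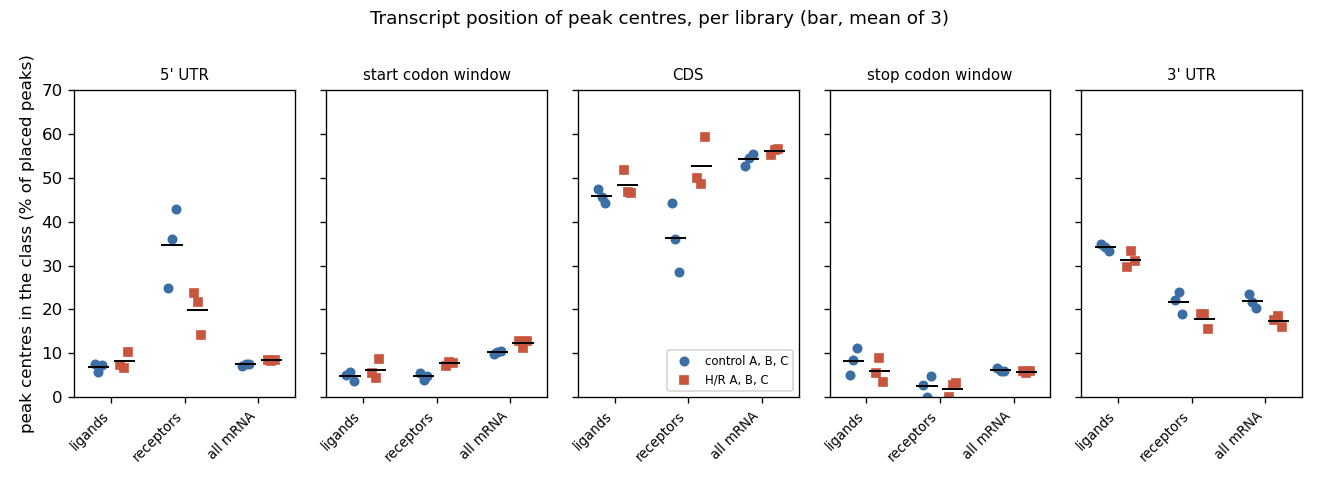
Share of peak centres in each transcript class, in percent of the placed peaks of a library, for ligand genes, receptor genes and all mRNA peaks, with circles for control libraries, squares for H/R libraries and a bar at the mean of 3. Receptor peaks lie at 14.1% to 42.9% in the 5′ UTR, above the ligand peaks and all mRNA peaks of the same libraries.

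The 3′ UTR held 28.2% ± 1.54 of member peak centres in the controls and 24.7% ± 1.85 after H/R (SD, n = 3), with ranges of 26.5% to 29.5% and 22.8% to 26.5%, and over all mRNA peaks 21.9% ± 1.61 and 17.4% ± 1.32. Coding centres of the members made up 41.1% ± 4.4 in the controls and 50.1% ± 2.92 after H/R, against 54.3% ± 1.37 and 56.1% ± 0.7 over all mRNA peaks, and the member values did not overlap between the groups. By bases the coding share of the members was 25.3% to 27.7% in the controls and 27.4% to 30.5% after H/R, and the groups overlapped. When every base of a peak was counted, the 3′ UTR share was 49.6% ± 0.666 and 50.1% ± 2.99, so that the lower share of centres after H/R was not seen in bases. Member peaks had a median length of 569, 697 and 676 bases in the controls and 446.5, 509 and 315.5 bases after H/R, and every H/R median was below every control median. Over all mRNA peaks the mean of these medians was 535 ± 38.4 bases in the controls and 298 ± 53.5 after H/R. The bases covered by member peaks were 69412, 56748 and 47468 in the controls and 73415, 73253 and 91988 after H/R, with a ratio of means of 1.37 against 1.64 for peak numbers.

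Sema3a, Sema3c and Sema3e, which all lie on chromosome 5, had coding peaks in the same place of the gene. In each of them the exon before the last was listed as a whole exon, and it measures 143, 131 and 140 bases. It was listed in all 6 lists for Sema3c (exon 17 of 18) and Sema3e (exon 16 of 17) and in control A and B and the 3 H/R lists for Sema3a (exon 16 of 17). The exon 3 places before the last, of 158, 158 and 167 bases, was listed in the 3 H/R lists for Sema3a, in H/R A and C for Sema3c, and in all 6 lists for Sema3e. The exon between them, 2 places before the last and 68 bases long in each gene, was listed in 3 lists for Sema3a, in 5 for Sema3c and in 0 for Sema3e. Sema3b, Sema3f and Sema3g also have an exon of 140, 134 and 134 bases before the last. It was listed in none of the 6 lists for these 3 genes, which had peaks in the last exon in 4, 6 and 1 lists. The aligned exon before the last was identical at 57.2% of positions between Sema3a and Sema3c, 57.6% between Sema3a and Sema3e and 53.2% between Sema3c and Sema3e. Between these genes and Sema3b, Sema3f or Sema3g the identity was 47.5% to 63.0%, so that it did not set the listed exons apart. Whether the RNAs of Sema3b, Sema3f and Sema3g were abundant enough for a call was not tested. The comparison was made after the positions had been seen.

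**Figure D5:**
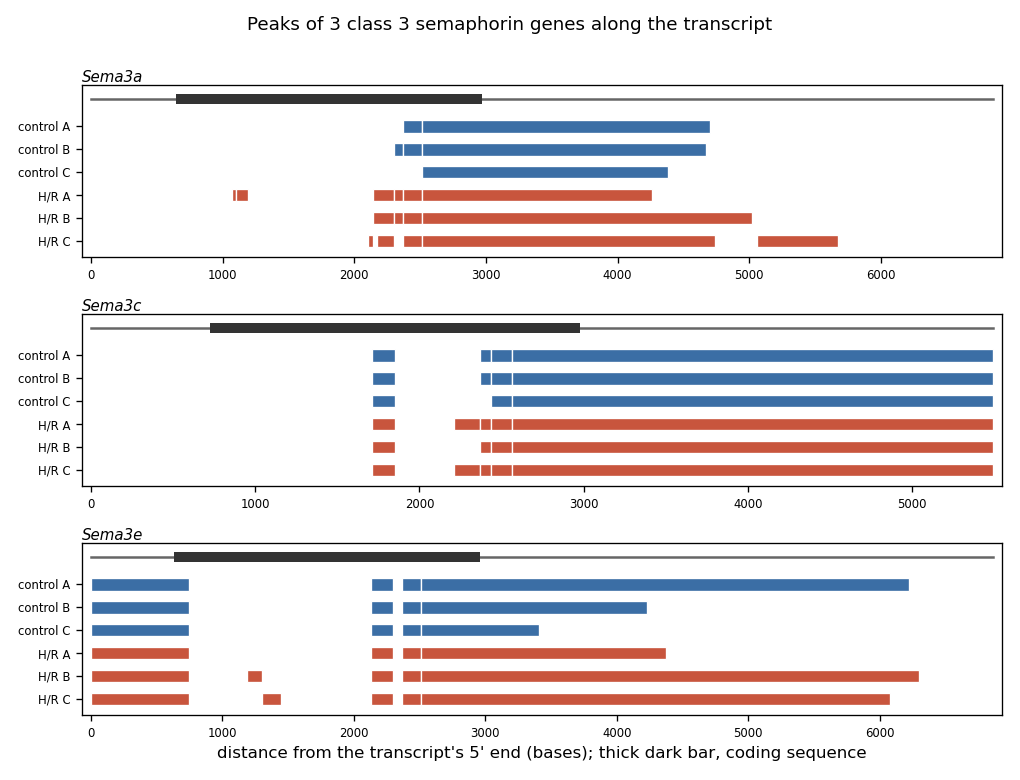
Peaks of Sema3a, Sema3c and Sema3e in each library, drawn to scale along 1 transcript per gene (distance from the 5′ end in bases), with the coding sequence as a dark bar and white lines where peaks meet at an exon junction. All 3 genes have a peak over the last exon in all 6 libraries, and the exon of 131 to 143 bases before it is covered in every library except control C of Sema3a.

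The DRACH match nearest to the middle of this exon was already shown for Sema3c and Sema3e. That of Sema3a, at chr5:13597541-13597561 (plus strand), is given for comparison and was the only match in the exon, against 3 in the Sema3c exon and 2 in the Sema3e exon.
Sema3a exon 16: ggagtggaAAACAgtagtaca

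Partner genes outside these families were taken from lists drawn up from general knowledge. Of 21 other guidance cues, receptors and adhesion partners, 8 had a peak in at least 1 list. Of these 8, Rgma, Rgmb, Met, Ptch1 and Flrt2 were called in all 6 lists, against 39.5% of all genes with a peak. Dcc, the attractive netrin receptor, had no peak. Of the 8 genes with a peak, 0 were H/R-only, against 4.96% of all genes with a peak, and 0 control-only, against 0.0698%. Of 52 cytoplasmic effectors of guidance receptors, 37 had a peak. For 8 of 21 and 37 of 52 no share over all annotated genes was computed. Of these 37, 25 were called in all 6 lists, against 39.5% of all genes with a peak. Among the same 37, 2 were H/R-only (against 4.96%) and 0 control-only (against 0.0698%). The H/R-only effectors were Farp1, a guanine nucleotide exchange factor linked to plexin A signalling, with 1, 1 and 3 peaks after H/R, and Vav3, with 3, 2 and 2 peaks. More peaks in every H/R list than in any control list were found for 8 of the 37 effectors with a peak, against 14.8% of all genes with a peak, and for 0 of the other cues and receptors.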

How the data were processed

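MeRIP-seq peak lists of 3 control and 3 H/R libraries were analysed. According to the study's methods and the submitters' processing notes, the authors trimmed reads with cutadapt (version 1.9.3), aligned them with HISAT2 (version 2.0.4) to mm10, called peaks per library with MACS (version not given in the sources used here), the immunoprecipitate against input, and kept and annotated parts on exons. Replicates were not pooled. Each deposited p score is 10 times the -log10 of the p-value, and the lowest was 50.0. The deposited fold enrichment is a ratio to the local background, and the false discovery rate was deposited as a percent. The lists hold no read counts, and the study's read totals were not used here, so that no interval that needs depth was given.

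Members were found by symbol, and a gene was called when its symbol had a peak in the mRNA list. Regions were merged over the 6 lists with 1 bp of overlap or more. Classes were set by the peak centre on RefSeq GRCm38.p6 or GENCODE models, the 100 bases on either side of start and stop codons first. Lists of equal length held the 7863 peaks with the highest p score. Peak numbers of single genes were compared by exact permutation, two-sided (smallest p 0.1). Genes named with values in every library were those of a single group, those whose peak numbers did not overlap, the 6 with the best lowest rank, the gene with the most peaks of each family, and those called in fewer H/R than control lists. Values of Efnb1, Ephb2, Ephb6, Epha4, Nrp1, Ntng2, Plxna1, Plxnb2 and Plxnd1, the sites of Sema3a, Ephb3, Ntn4 and Efnb1, and the partner genes outside the families other than Farp1 and Vav3 were chosen after their values were seen. Members and gene lists were chosen with earlier results of these data known. Alternatives were equal list length, fold enrichment of 10 or more, p score of 100 or more, ranking by fold enrichment, calls by coordinates, 50% overlap and leaving out each library. Scripts used Python 3.11.15, pandas 2.3.3, Biopython 1.88 and pysam 0.24.0, and the counting was tested on simulated data. The lncRNA and circRNA lists served only to count overlaps.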

Additional observations from a re-analysis of the deposited data

How the results depend on the processing

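Before H/R and control lists were made equally long, the groups did not overlap in all genes called or all mRNA peaks, nor in members called or member peaks. At equal length the differences in means, H/R minus control, were -0.667 genes and -0.333 peaks in place of 6.67 and 40.3, 0 genes and 0 regions were H/R-only, 0 genes had more peaks in every H/R list, and 1 gene, Efnb1, was control-only and had fewer peaks in every H/R list. The change in 3′ UTR centres turned from -3.53 to 1.25 percentage points, and to 0.433 when every base was counted. With fold enrichment of 10 or more the differences were 1.33 genes, 4.67 peaks and -1.56 percentage points, 2 genes were H/R-only (Sema6b, Sema7a) and 2 had more peaks in every H/R list. With p scores of 100 or more 2 genes were H/R-only. With abutting exon parts counted as 1 stretch, which was chosen after seeing the data, 1 gene had more. The genes called in all 6 lists numbered 22 to 31 over all alternatives. For the fold enrichment and p score settings the shares over all genes were not computed, so these counts have no background. The cause of these changes was not tested beyond the number of peaks that each setting leaves.

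Leaving out 1 library in turn gave differences of 4.5 to 8.5 genes, 27.8 to 50.3 peaks and -4.45 to -2.58 percentage points. It gave 1 to 3 H/R-only genes (3 without control A, Efna4, Sema6b and Sema7a), 0 control-only genes, 6 to 14 H/R-only regions, 28 to 31 genes in all 6 lists, 5 to 14 genes with more peaks (14 with control A and 13 with H/R B left out) and 0 to 1 with fewer (Ephb6 without control B). Shares over all genes or regions were not computed with a library left out, so these counts are not read as particular to the axon guidance genes. No paired analysis was possible because the lists carry letters that no label ties to the replicate numbers.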

Other observations

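The circRNA lists held peaks at 3 of the axon guidance genes. Of the member mRNA peaks, 4, 4 and 2 overlapped a circRNA peak of the same library in the controls and 6, 4 and 6 after H/R, in the order of the letters, so that the groups overlapped. They lay in Sema3c in all 6 libraries, in Ephb2 in all but control C, and in Sema3a in H/R A. Linear and circular RNA share these exons, and which RNA carried the enrichment cannot be told apart from the lists. No member mRNA peak overlapped an lncRNA peak of the same library. Of the 150 member regions, 1 lay over an exon of another annotated gene, the Ntn3 region of H/R B over Tbc1d24.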
